A study of Mus musculus with 9 samples.

Results

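The genes described here are the receptors of fibroblast growth factors (FGFs) and their closest partners in neural stem cells (NSCs). They are Fgfr1, Fgfr2, Fgfr3, Fgfr4, Fgfrl1, the ligands Fgf1 and Fgf2, the docking proteins Frs2 and Frs3 and the FGF carrier Fgfbp3, and they were chosen by name and found by their Ensembl identifiers. All 10 had a row among the 48526 genes of the count table, and 9 of the 10 were among the 18858 genes with enough reads to be tested (Fgfr4 was not). The NSCs came from the subependymal zone (SEZ) of C57BL/6 mice and were grown as neurospheres with EGF and FGF. Cells collected at 0 h were the starting point, and cells collected 1 h and 6 h later had been kept on an adhesive substrate, Matrigel, in medium with FGF but no EGF. The study's methods describe, for cells fixed at early times, a prior seeding in the complete medium. Whether the RNA libraries had this step, and whether the 0 h cells were already on the substrate, is not given in the sources used here, so that without it the loss of EGF and a change of substrate cannot be told apart. All 3 time points carried no transgene or deletion, shared FGF in their medium and had 3 replicates each, which gives 9 RNA-seq libraries. The library titles mark the replicates with the letters B, C and D, numbered 1 to 3 here in that order. Whether replicates came from separate animals or cultures is not given in the sources used here, and the p-values therefore measure the spread between these samples.

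An FGF binds its receptor together with heparan sulfate, a sugar chain carried by proteoglycans on the cell surface, and brings receptors together so that their tyrosine kinases switch on. The docking proteins FRS2 and FRS3 then pass the signal to the RAS and ERK kinases and to PI3 kinase, and the Sprouty, Spred and DUSP proteins hold this signal back. FGF2 and EGF are the factors used to expand adult NSCs in culture, and FGF was the growth factor left in the medium after the withdrawal.

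The libraries held between 65871454 and 105592597 counts, and levels are given as CPM, counts scaled to a common library size with TMM factors. The NSC markers fixed for the culture were all expressed, with summed levels of 7004 to 8543, 6781 to 9104 and 6052 to 7752 CPM over 8 genes at the 3 time points, whereas no marker of microglia or endothelial cells reached a mean of 1 CPM. Levels of other lineages were not constant: the 7 astrocyte markers summed to 827 to 1047 CPM at 0 h, against 1033 to 1217 CPM at 6 h, and the 8 markers of the oligodendrocyte lineage, 5 of them averaging 1 CPM or more and none at 0, to 1695 to 2294 CPM at 0 h, against 2169 to 2517 CPM at 6 h. The largest parts were Aldoc, at 498 to 822 CPM over the 9 libraries, and Olig1 and Olig2, at 1082 to 1509 and 542 to 849 CPM. Other markers of these lists were low: Gfap and Aqp4 reached at most 1.63 and 3.16 CPM, and Sox10, Mbp and Mog at most 0.33, 1.17 and 0.50 CPM. The 7 neuron markers summed to 964 to 1483 CPM at 0 h, against 1002 to 1566 CPM at 6 h. Map2 made most of this, at 793 to 1508 CPM over the 9 libraries, and Syt1 reached at most 113 CPM. Tubb3, Rbfox3, Snap25, Dcx and Stmn2 reached at most 10.1, 7.47, 5.03, 1.78 and 0.80 CPM. With the replicate block described below, 2 of the 7 astrocyte markers were higher at 6 h than at 0 h (edgeR). So were 5 of the 8 oligodendrocyte, 4 of the 7 neuron and 3 of the 8 NSC markers. Lower were 1 astrocyte and 2 NSC markers. In that fit 17.4% of all tested genes were higher and 17.5% lower. The 4 markers of pericytes and smooth muscle summed to 52.3 to 95.4 CPM at 0 h, against 33.1 to 47.1 CPM at 6 h, the 4 ependymal markers to 47.3 to 88.5 and 38.5 to 60.1 CPM, and the 4 fibroblast markers to 8.25 to 17.2 and 10.3 to 20.8 CPM. In the first of these lists Acta2 held 25.2 to 107 CPM over the 9 libraries, while Pdgfrb, Rgs5 and Myh11 reached at most 4.96, 3.69 and 1.55 CPM. With the block, 2 of these 4 markers were higher and 2 lower at 6 h against 0 h. Of the tested ependymal markers 0 were higher and 2 lower, and of the tested fibroblast markers 1 was higher and 0 lower. The part of these markers in the results below was not tested, and in a mixed culture fewer cells of a type and less RNA per cell cannot be told apart. Libraries with the same replicate number deviated together (correlations of 0.733 to 0.800), so each comparison is given both from a fit of the time point alone and from one that adds the replicate number as block. Without the block no tested member passed an adjusted p of 0.05 in any of the 3 comparisons (edgeR, 0 of 9 members in each), where the share of all tested genes called was 0.0424% at 1 h against 0 h, 2.42% at 6 h against 0 h and 2.14% at 6 h against 1 h. Before adjustment, at a threshold of 0.05, the fit without the block held 1 member, Fgfrl1 at 6 h against 0 h. DESeq2 without the block also called 0 of 9. The spread that edgeR estimated between libraries, as a coefficient of variation over all genes, was 0.277 when the block was left out, against 0.0627 in the blocked fit, and at the larger spread a count of 0 does not show that the levels stayed alike. With the replicate block, 1 member was lower and 0 were higher at 1 h against 0 h, 2 were higher and 1 was lower at 6 h against 0 h, and 2 were higher and 1 was lower at 6 h against 1 h. The shares of all tested genes called in that fit were 1.36% higher and 2.14% lower at 1 h against 0 h, 17.4% higher and 17.5% lower at 6 h against 0 h, and 18.0% higher and 17.5% lower at 6 h against 1 h. Beside these shares, 3 calls among 9 members at 6 h are close to the background of all genes. The median log2 fold change of the 9 members with the block was 0.02 at 6 h against 0 h, beside a median of -7.8e-05 over all tested genes.

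Fgfr1 had the highest level of the kinase receptors. It lies on chromosome 8 from 25513654 to 25575718 (GRCm38, plus strand) and encodes a receptor tyrosine kinase for many FGFs, including FGF1 and FGF2, and 164 bases of its exons overlap Gm16159 on the other strand. In the order of the time points, its level was 279, 311 and 259 CPM in replicate 1, 313, 353 and 326 CPM in replicate 2, and 390, 406 and 393 CPM in replicate 3. Replicate 3 was the highest and replicate 1 the lowest at each time point, and the 3 time points overlapped. The means were 327 ± 56.8, 357 ± 47.9 and 326 ± 66.9 CPM (SD, n = 3). At 1 h Fgfr1 was higher than at 0 h in 3 of 3 replicates, with a log2 fold change of 0.12 ± 0.18 (SE) without the block and 0.13 ± 0.05 with it, which did not pass the test (edgeR, adjusted p of 1.0 and 0.205). At 6 h it was back near its starting level, with a value of -0.01 ± 0.05 against 0 h in the blocked fit (adjusted p = 0.878). From 1 h to 6 h with the replicate block it fell by 0.14 ± 0.05 in log2 units (adjusted p = 0.0478, lower in 3 of 3 replicates) and by 0.13 ± 0.18 without it (adjusted p = 0.792). That call did not hold when any library of replicates 1 and 2, or 0 h replicate 3, was left out, with adjusted p-values between 0.0671 and 0.277, nor in the blocked fit scaled by library totals alone (adjusted p = 0.123).

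Fgfr2, a receptor with splice forms that bind different FGFs, was expressed at a much lower level. Its annotated gene runs on chromosome 7 from 130162451 to 133123350 on the minus strand, a span that includes read-through transcripts sharing 314 bases of exon with Ctbp2. Replicate 1 had 24.2, 30.8 and 26.0 CPM at 0, 1 and 6 h, replicate 2 had 46.4, 54.8 and 53.5 CPM, and replicate 3 had 37.4, 40.3 and 37.8 CPM. Each replicate was highest at 1 h, but replicate 2 was 1.78 to 2.06 times replicate 1 at every time point, which was more than any change over time. At 1 h against 0 h the log2 fold change was 0.23 ± 0.06 with the block (adjusted p = 0.0568) and 0.22 ± 0.33 without it (adjusted p = 1.0). DESeq2 with the block put the same comparison past the threshold (adjusted p = 0.0164). At 6 h against 0 h the value with the block was 0.11 ± 0.06 (adjusted p = 0.181).

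Fgfr3, a receptor found in glial and radial glial cells among others, was lower at 6 h than at 0 h with the replicate block. Its gene lies on chromosome 5 from 33721674 to 33737068 on the plus strand, and 998 bases of its exons overlap G630022F23Rik on the other strand, whose reads could only be separated by a stranded count. The levels at 0, 1 and 6 h were 44.2, 38.9 and 39.5 CPM in replicate 1, 68.7, 64.9 and 55.5 CPM in replicate 2, and 46.2, 40.5 and 41.2 CPM in replicate 3. Both later time points were below 0 h in 3 of 3 replicates, while the groups overlapped because replicate 2 was the highest throughout. At 1 h the log2 fold change against 0 h was -0.15 ± 0.06 with the block (adjusted p = 0.19). At 6 h it was -0.21 ± 0.06 with the replicate block (adjusted p = 0.0124) and -0.22 ± 0.25 without it (adjusted p = 0.738). The call with the block was lost without 0 h replicate 2 (adjusted p = 0.0833) and without 6 h replicate 2 (adjusted p = 0.117).

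Fgfr4, the remaining kinase receptor, was near the limit of detection. Its row held between 2 and 9 counts per library, which is 0.028 to 0.125 CPM, and it was not tested. A level this low allows no statement on its change.

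Fgfrl1, also called FGFR5, binds FGFs and heparan sulfate but lacks a kinase domain. It lies on chromosome 5 from 108692382 to 108706924 on the plus strand. Its levels at 0, 1 and 6 h were 151, 166 and 175 CPM in replicate 1, 117, 133 and 147 CPM in replicate 2, and 124, 143 and 168 CPM in replicate 3. Each replicate was higher at each later time point, and the ranges at 0 h and 6 h met only between 147 and 151 CPM. The means were 131 ± 17.9, 147 ± 16.6 and 164 ± 14.8 CPM (SD, n = 3). At 6 h against 0 h the log2 fold change was 0.33 ± 0.05 with the replicate block, a fold of 1.26 (adjusted p = 0.000277), and this call held in all 9 fits on 8 libraries, with adjusted p-values up to 0.00486. Without the block the value was 0.32 ± 0.12 (adjusted p = 0.218). The first hour gave 0.18 ± 0.05 on the log2 scale with the block (adjusted p = 0.0812), which DESeq2 with the block called (adjusted p = 0.032). From 1 h to 6 h Fgfrl1 was higher by 0.15 ± 0.05 (adjusted p = 0.0317 with the block). This last call was lost without 1 h replicate 1, without 6 h replicate 3 and without any library of replicate 2 (adjusted p between 0.0602 and 0.181), and when the trends with GC content and length were removed (adjusted p = 0.225).

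**Figure D1:**
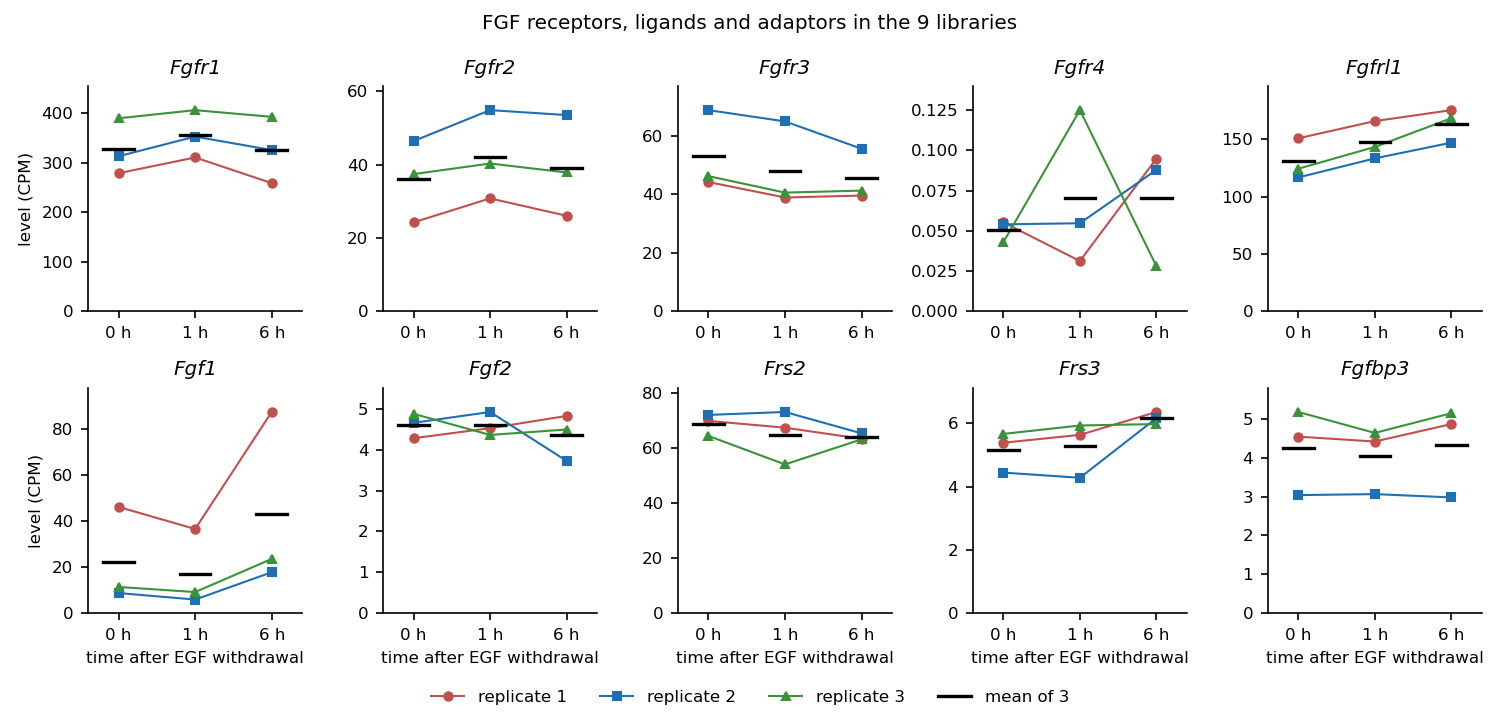
Level in CPM (y axis, linear from 0) of the 10 genes at 0, 1 and 6 h (x axis), with 1 line per replicate and black bars for the mean of 3. Fgf1 falls at 1 h and rises at 6 h in every replicate around very different starting levels, Fgfrl1 climbs in every replicate, and Fgfr4 stays at or below 0.125 CPM.

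Because Fgfrl1 and Fgfr3 were the receptors called at 6 h against 0 h with the block, in opposite directions, their promoter windows are shown, from RefSeq on GRCm38.p6. Windows of 300 bases, running from 250 before to 50 after an annotated start, were given for 8 of the 10 members. The capitals mark each GC box (GGGCGG, either strand), a site bound by SP1-type factors, and each match to CCGGAAGT, the core bound by ETS factors, the family to which the FGF targets Etv4 and Etv5 belong. The windows are chr5:108693979-108694278 for Fgfrl1 and chr5:33721474-33721773 and chr5:33722056-33722355 for the starts of Fgfr3, all on the plus strand.
Fgfrl1: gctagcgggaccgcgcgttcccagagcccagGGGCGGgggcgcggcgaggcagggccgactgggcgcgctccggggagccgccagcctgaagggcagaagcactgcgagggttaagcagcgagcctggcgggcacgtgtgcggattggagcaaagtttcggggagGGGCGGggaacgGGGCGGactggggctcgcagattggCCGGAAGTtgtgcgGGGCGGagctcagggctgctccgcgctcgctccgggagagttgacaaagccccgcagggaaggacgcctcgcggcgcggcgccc
Fgfr3, first start: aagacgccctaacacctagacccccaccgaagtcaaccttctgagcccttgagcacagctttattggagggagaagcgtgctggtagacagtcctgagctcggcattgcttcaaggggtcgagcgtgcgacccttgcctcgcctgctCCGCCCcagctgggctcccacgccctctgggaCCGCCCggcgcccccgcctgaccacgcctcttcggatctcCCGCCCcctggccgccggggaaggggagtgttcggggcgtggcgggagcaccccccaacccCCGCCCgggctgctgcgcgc
Fgfr3, second start: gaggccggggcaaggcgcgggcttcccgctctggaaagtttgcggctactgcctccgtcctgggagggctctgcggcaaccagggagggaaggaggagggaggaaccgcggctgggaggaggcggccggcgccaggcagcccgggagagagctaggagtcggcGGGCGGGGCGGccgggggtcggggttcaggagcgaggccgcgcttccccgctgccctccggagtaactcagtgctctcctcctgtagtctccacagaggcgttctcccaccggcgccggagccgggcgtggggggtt
The Fgfrl1 window held 4 GC boxes, 1 ETS match, 2 CCAAT boxes and 1 E-box (CACGTG), and 73.7% of its bases were G or C. The Fgfr3 windows held 4 and 2 GC boxes, 1 and 0 CCAAT boxes and no ETS match or E-box, with 69.7% and 73.0% G or C. Among all 32851 promoter windows 35.7% held a GC box, 3.89% the ETS match, 37.4% a CCAAT box and 7.15% an E-box, searched on both strands, and the median GC content was 52.7%. None of the 3 windows held TATAAA, which 13.6% of all windows did. Among the other members the ETS match was present in Frs2, whose level was not called at any time. GC boxes were also present in the windows of Frs3 (5), Fgfr4 (4), Frs2 (2) and Fgf2 (1). By contrast, the Fgfr2 window had 43.7% G or C, no GC box and 1 E-box, and the Fgfbp3 window had 46.7% G or C and no GC box. These matches describe the letters in the windows and show no binding.

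Divided by length, the receptors kept their order through the time course. Per kb of the union of exons, Fgfr1 was at 33.1 ± 5.75, 36.1 ± 4.85 and 33.0 ± 6.78 CPM per kb at 0, 1 and 6 h (SD, n = 3). Fgfr3 stood at 7.41 ± 1.91, 6.72 ± 2.03 and 6.35 ± 1.23 CPM per kb and Fgfr2 at 3.49 ± 1.08, 4.06 ± 1.17 and 3.79 ± 1.33 CPM per kb, and the ranges of these neighbours did not meet at any time point on this scale. Fgfrl1, at 46.9 ± 6.44, 53.0 ± 5.98 and 58.8 ± 5.30 CPM per kb, was above Fgfr1 on this scale. Its place depends on the length used: per kb of the longest transcript Fgfr1 was at 64.9 and Fgfrl1 at 56.0 CPM per kb at 0 h, with overlapping ranges, and at 64.6 and 70.2 CPM per kb at 6 h. The docking protein Frs2 lay beside Fgfr3, and their ranges overlapped at each time point. The lower end was made of Fgfbp3, Frs3, Fgf2 and Fgfr4, of which Fgf2 had 0.64 to 0.68 CPM per kb on average.

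Among the 4 kinase receptors, Fgfr1 took 75.2% ± 5.40 of the summed level per kb at 0 h, 77.1% ± 5.14 at 1 h and 76.4% ± 4.53 at 6 h (SD, n = 3). The share of Fgfr3 was 16.9% ± 3.97, 14.3% ± 3.51 and 14.9% ± 2.80, and that of Fgfr2 was 7.83% ± 1.77, 8.58% ± 1.74 and 8.69% ± 2.24. Between 0 h and 6 h the share of Fgfr3 differed by -2.01 percentage points and that of Fgfr2 by 0.86 points, each in the same direction in 3 of 3 replicates. An exact two-sided permutation test of 3 against 3 libraries gave p = 0.5 for each, where the smallest possible p is 0.1. An exact permutation within replicate numbers gave p = 0.25 for each, which is the smallest that 3 pairs allow. Neither form of the test can pass 0.05 with these libraries, and the p-values therefore do not show that the shares stayed alike. For Fgfr1 the share differed by 1.14 points (exact permutation p = 0.8). At 1 h the difference from 0 h was -2.63 points for Fgfr3, 0.75 points for Fgfr2 and 1.87 points for Fgfr1, again in 3 of 3 replicates each (exact permutation p of 0.5, 0.5 and 0.6). The 9 tests of shares, 3 receptors in 3 comparisons, gave exact p-values of 0.5 or more between libraries and of 0.25 or more within replicates.

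**Figure D2:**
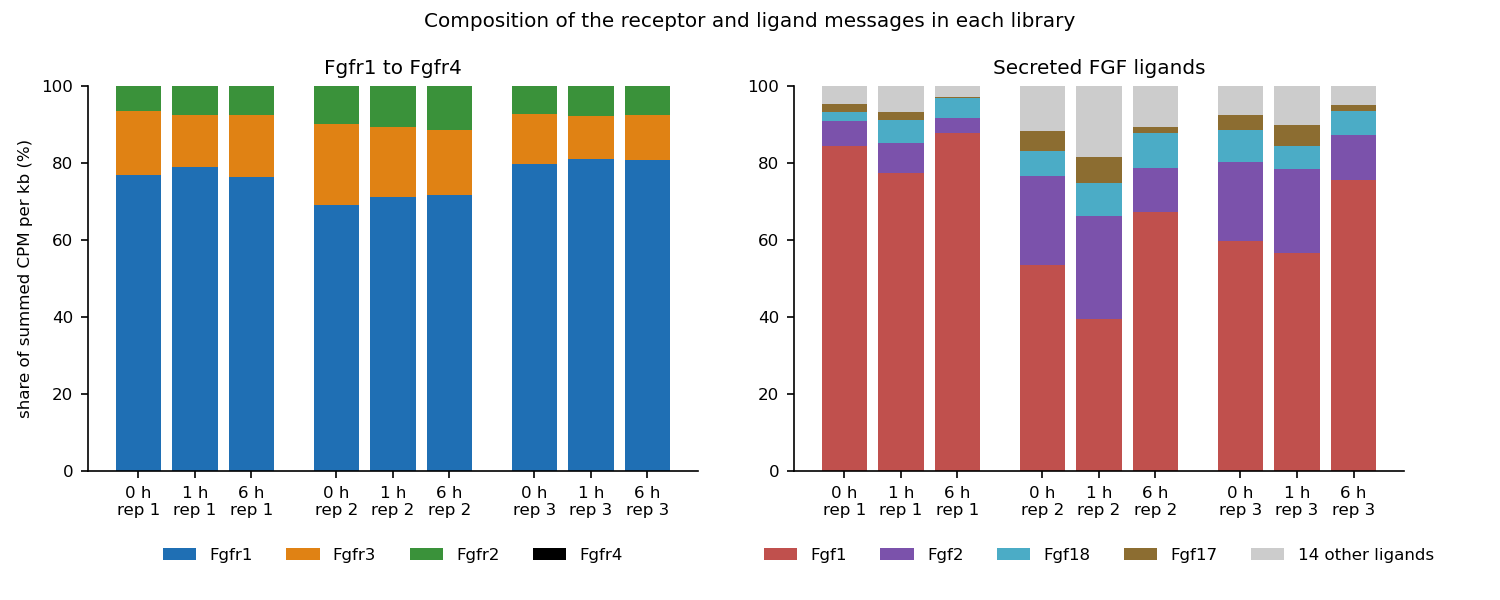
Share in percent (y axis) of the summed CPM per kb taken by each gene in each of the 9 libraries (x axis, grouped by replicate), for the 4 kinase receptors on the left and for 18 secreted FGF ligands on the right. Fgfr1 holds 69.2% to 81.1% of the receptor sum, Fgfr4 less than 0.1%, and the Fgf1 share dips at 1 h and is highest at 6 h in every replicate.

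Fgf1 had the highest level of the secreted ligands, and it was called in all 3 comparisons with the replicate block. FGF1 binds all the FGF receptors and has no classical signal peptide, and its gene lies on chromosome 18 from 38838673 to 38929472 on the minus strand. The level at the 3 time points was 46.2, 36.6 and 87.6 CPM in replicate 1, 8.73, 5.89 and 17.8 CPM in replicate 2, and 11.4, 9.16 and 23.6 CPM in replicate 3. Replicate 1 stood apart, at 4.24 to 4.87 times the mean of the others, and the time points overlapped. Within each replicate the course was alike: the log2 ratio of 1 h to 0 h was -0.34, -0.57 and -0.31 in replicates 1, 2 and 3, and that of 6 h to 0 h was 0.92, 1.03 and 1.05. With the replicate block Fgf1 was lower at 1 h, by a log2 fold change of -0.40 ± 0.07 (adjusted p = 0.00797), and higher at 6 h, by 1.00 ± 0.07 against 0 h (adjusted p = 3.96e-07) and 1.39 ± 0.07 against 1 h (adjusted p = 4.09e-08). The blocked calls at 6 h held without any 1 of the 9 libraries, and that at 1 h was lost without 0 h replicate 1 (adjusted p = 0.0624) or 0 h replicate 2 (adjusted p = 0.0655). Without the block the standard error exceeded 0.9 on the log2 scale in all 3 comparisons. The log2 fold change at 6 h against 0 h was then 0.96 (adjusted p = 0.679) and became -0.10 without 6 h replicate 1 (adjusted p = 0.982).

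Fgf2, the ligand related to the factor supplied in NSC media, was low and did not pass the test. Its gene lies on chromosome 3 from 37348346 to 37410108 on the plus strand, and 640 bases of its exons overlap Nudt6, the antisense gene of this locus. The 3 libraries at 0 h had 4.28, 4.66 and 4.88 CPM, those at 1 h 4.53, 4.93 and 4.36 CPM and those at 6 h 4.83, 3.73 and 4.50 CPM, in the order of the replicates. The time points overlapped, and the log2 fold change at 6 h against 0 h was -0.09 ± 0.11 with the block (adjusted p = 0.6). Per kb, Fgf1 held 65.9% ± 16.4 of the sum over 18 secreted ligands at 0 h, 58.0% ± 19.0 at 1 h and 76.9% ± 10.2 at 6 h, and Fgf2 held 16.7% ± 9.04, 18.7% ± 9.85 and 8.97% ± 4.39 (SD, n = 3). This sum was computed after the levels had been seen and was not tested.

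The other 16 secreted ligands were almost silent. None had a mean of 1 CPM, the highest value in any library was 1.14 CPM for Fgf18, and Fgf3 and Fgf4 had 0 counts in all 9 libraries, which allows up to 0.028 to 0.0469 CPM in a library (3 counts, counting error only). Of the 5 that could be tested, with the replicate block 1 was higher and 1 lower at 6 h against 0 h, and 0 were called at 1 h. At 6 h against 0 h the shares of all tested genes were 17.4% higher and 17.5% lower. Fgf18, a ligand of FGFR3 among others, had 20, 17 and 24 counts at 0 h, 40, 25 and 15 at 1 h and 84, 47 and 46 at 6 h in replicates 1, 2 and 3. Its level at 6 h lay above all values at 0 h, with a log2 fold change of 1.20 ± 0.32 (adjusted p = 0.0111), a call lost without 0 h replicate 1 or 6 h replicate 1 (adjusted p up to 0.135). Fgf17, a member of the FGF8 family, had 28, 20 and 16 counts at 0 h and 6, 12 and 14 at 6 h. Its log2 fold change was -1.31 ± 0.36 (adjusted p = 0.0123), again lost without 0 h replicate 1 or 6 h replicate 1 (adjusted p up to 0.0977). The intracellular relatives Fgf11 to Fgf14, which are not secreted and do not activate the receptors, had 4 of 4 genes tested and 0 called at 6 h against 0 h. Of the klotho coreceptors, which endocrine FGFs need, and the carrier Fgfbp1, 1 of 3 genes could be tested and 0 were called.

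Neither docking protein passed the test in any comparison in the TMM-scaled edgeR fits on all 9 libraries, with or without the block. Frs2, on chromosome 10 from 117069427 to 117148534 on the minus strand, links the receptors to GRB2 and SHP2. Its levels in replicates 1, 2 and 3 were 69.9, 72.0 and 64.4 CPM at 0 h, 67.4, 73.1 and 54.0 CPM at 1 h and 63.4, 65.3 and 63.1 CPM at 6 h. At 6 h each replicate was below its own value at 0 h, with a blocked log2 fold change of -0.10 ± 0.07 that did not pass the test (adjusted p = 0.262). Frs3, its relative on chromosome 17 from 47689030 to 47704286 on the plus strand, had 5.39, 4.45 and 5.67 CPM at 0 h, 5.64, 4.28 and 5.94 CPM at 1 h and 6.36, 6.17 and 5.98 CPM at 6 h. The values at 6 h lay above those at 0 h without overlap, and the log2 fold change was 0.26 ± 0.10 with the block (adjusted p = 0.0636) and 0.26 ± 0.16 without it (adjusted p = 0.48). Among the 9 blocked fits on 8 libraries, edgeR called Frs3 higher at 6 h only without 1 h replicate 3 or 6 h replicate 3. The adjusted p was then down to 0.0187 against 0 h and 0.028 against 1 h. In Frs3, 509 bases of exon overlap the antisense gene Frs3os. Fgfbp3, on chromosome 19 from 36917550 to 36919615 on the minus strand, encodes a secreted protein that carries FGFs away from heparan sulfate. It had 4.55, 3.04 and 5.18 CPM at 0 h, 4.42, 3.07 and 4.64 CPM at 1 h and 4.87, 2.98 and 5.15 CPM at 6 h, with replicate 2 the lowest throughout. The log2 fold change of Fgfbp3 at 6 h against 0 h was 0.02 ± 0.09 with the block (adjusted p = 0.883).

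For 6 of the 9 tested members, the largest ratio between replicates at 1 time point was larger than the largest ratio between time points in 1 replicate. The extreme case was Fgf1, with a ratio of 6.22 between replicates at 1 h and of up to 3.02 between time points. Fgfr2 differed up to 2.06 times between replicates and 1.27 times over time, and Fgfr3 up to 1.67 and 1.24 times. Fgfrl1, Fgf2 and Frs3 had the reverse order, with ratios over time of up to 1.35, 1.32 and 1.44 and ratios between replicates of up to 1.29, 1.30 and 1.39.

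**Figure D3:**
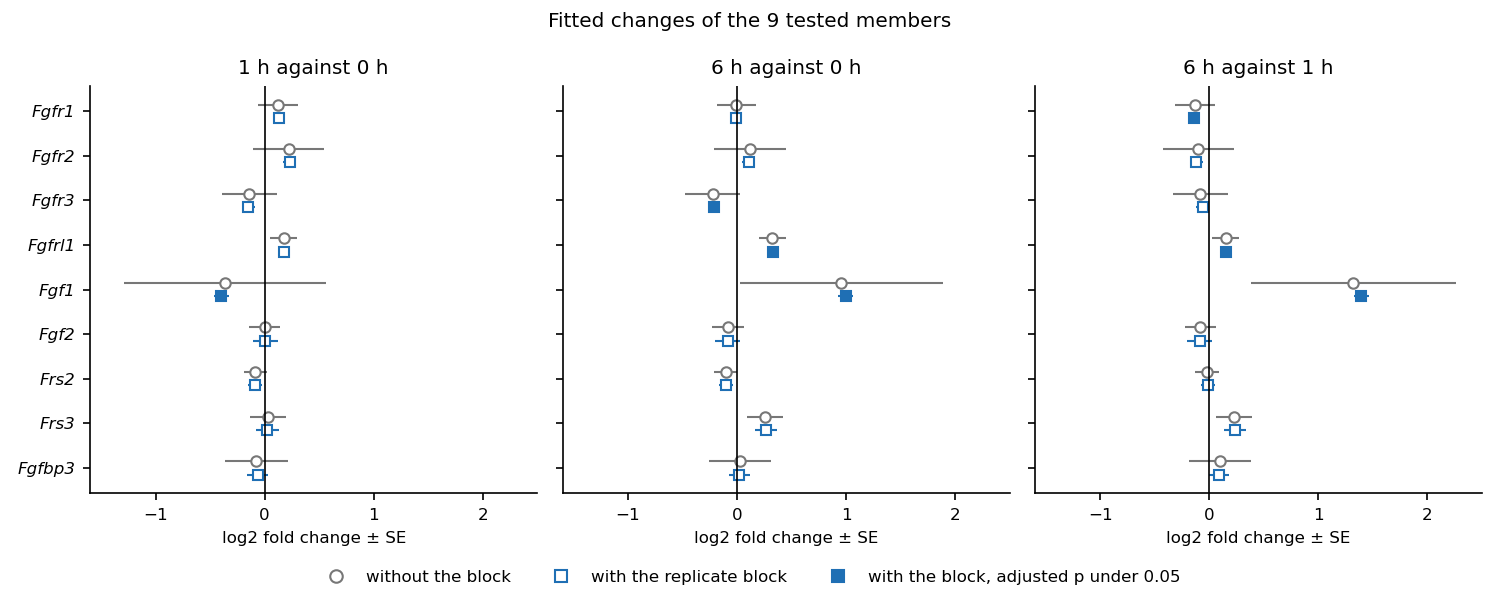
Log2 fold change with its standard error (x axis) of the 9 tested genes (y axis) in the 3 comparisons, without the block (grey circles) and with the replicate block (blue squares, filled where the adjusted p was under 0.05). The estimates of both fits lie close together, while the error of Fgf1 shrinks from 0.93 to 0.07 at 6 h against 0 h.

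The genes whose log2 CPM over the 9 libraries ran most like that of a receptor followed these replicate differences. Among 13597 genes, those closest to Fgfr1 were Igsf11, Vstm2b and Vdac1 (Pearson r of 0.982, 0.982 and 0.972). Those closest to Fgfr2 were Lrig1, Otx2 and Scamp5 (r of 0.982, 0.981 and 0.978), and those closest to Fgfr3 were Ugt8a, Ecm1 and Plppr5 (r of 0.984, 0.980 and 0.977). The 9 points share 3 replicate numbers, so that they are not independent and r is given as a description only.

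Around the receptors, 94 of 108 genes in the lists of the pathway and of the ErbB receptors were tested. At 6 h, the blocked fit called 24 higher and 18 lower than at 0 h, beside the 17.4% and 17.5% of all tested genes, and their median log2 fold change was 5.7e-04. Without the block 2 were higher and 2 lower. At 1 h against 0 h, 3 were higher and 2 lower with the block, beside 1.36% and 2.14% of all tested genes. At 6 h against 1 h 27 were higher and 22 lower, beside 18.0% and 17.5% of all tested genes. These counts include the 4 ErbB receptors, given below as a comparison. With the block 2 of them were higher at 6 h against 0 h and 3 at 6 h against 1 h, and 0 were lower. The counts of the single lists below, at 6 h against 0 h with the block, stand beside the same 17.4% higher and 17.5% lower of all tested genes. The lists had been chosen with earlier results of these data known.

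Heparan sulfate proteoglycans, which hold FGFs at the cell surface, had 4 of 12 genes higher and 2 lower at 6 h against 0 h with the block, with a median log2 fold change of 0.24. Agrn, the gene of agrin, had 341, 342 and 319 CPM at 0 h and 488, 534 and 468 CPM at 6 h in replicates 1, 2 and 3. Its groups did not overlap, and its log2 fold change was 0.57 ± 0.10 without the block (adjusted p = 0.0358), a call that held only without 1 h replicate 2 or 1 h replicate 3 among the 9 fits on 8 libraries (adjusted p up to 0.14), and 0.57 ± 0.06 with it (adjusted p = 8.97e-06). The syndecan genes Sdc4 and Sdc1 went the other way, by -0.56 ± 0.05 (adjusted p = 6.51e-06 with the block) and -0.43 ± 0.05 (adjusted p = 2.73e-05). Sdc3, another syndecan, had 460, 426 and 447 CPM at 0 h and 517, 563 and 509 CPM at 6 h. Sdc2 had means of 83.3 CPM at 0 h and 85.0 CPM at 6 h. At 6 h against 1 h Gpc2, a glypican, and Agrn were higher without the block, by 1.00 and 0.52 on the log2 scale (adjusted p of 0.0309 and 0.0467). Among the fits leaving out a library, Gpc2 stayed past the threshold only without 6 h replicate 1 (adjusted p up to 0.125) and Agrn in none (adjusted p up to 0.149). Enzymes that build or trim heparan sulfate had 5 of 16 tested genes higher and 4 lower. Hs6st3, a 6-O-sulfotransferase, had 13, 8 and 18 counts at 0 h and 36, 54 and 70 at 6 h, a log2 fold change of 1.67 ± 0.33 without the block (adjusted p = 0.0435) that was lost in each of the 9 fits without a library (adjusted p up to 0.164). The polymerase gene Ext1 was lower by -0.25 ± 0.05 (adjusted p = 0.000997 with the block), and the epimerase gene Glce by -0.30 ± 0.06 (adjusted p = 0.00265). At 1 h the call of this group was Hs3st1, a 3-O-sulfotransferase, with 3.63, 2.27 and 2.82 CPM at 0 h and 8.89, 4.86 and 6.19 CPM at 1 h, a log2 fold change of 1.18 ± 0.13 (adjusted p = 0.000175 with the block).

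Of the 6 partners that bind FGF receptors at the membrane, Cdh2, which encodes N-cadherin, was lower at 6 h, with a log2 fold change of -0.31 ± 0.05 (adjusted p = 0.000429 with the block), and 0 were higher. Flrt3, a transmembrane protein that binds FGFR1, was higher at 1 h by 0.41 ± 0.06 (adjusted p = 0.0023). Among the 13 adaptors and effectors, 3 were higher and 2 lower at 6 h against 0 h with the block. The adaptor gene Crk had 260, 254 and 264 CPM at 0 h and 217, 200 and 214 CPM at 6 h. It was lower by -0.30 ± 0.06 without the block (adjusted p = 0.0437), past the threshold only without 1 h replicate 3 among the 9 fits on 8 libraries (adjusted p up to 0.167), and by -0.30 ± 0.05 with the block (adjusted p = 0.000276). Smaller rises were those of Gab2, 0.18 ± 0.05 (adjusted p = 0.0149 with the block), and of Plcg1, which encodes a phospholipase docked on the receptor, 0.13 ± 0.04 (adjusted p = 0.0345). Both calls were lost without the 0 h library of replicate 1 and without the 0 h or 6 h library of replicate 2 (adjusted p up to 0.0969 and 0.163), and that of Plcg1 held only without 1 h replicate 2 or 1 h replicate 3. At 1 h the exchange factor gene Sos1 was lower by -0.31 ± 0.07 (adjusted p = 0.0205), a call lost without 0 h replicate 2 or 0 h replicate 3 (adjusted p up to 0.172).

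Downstream of the docking proteins, the RAS to ERK kinases had 5 of 13 genes higher and 4 lower at 6 h against 0 h with the block, with a median log2 fold change of -0.11. Rps6ka2 and Map2k1, an ERK-activated kinase and the ERK kinase MEK1, were higher by 0.40 ± 0.05 (adjusted p = 4.58e-05) and 0.36 ± 0.05 (adjusted p = 8.44e-05). Rps6ka3, another ERK-activated kinase, was lower by -0.23 ± 0.06 (adjusted p = 0.0065). This call was lost without 0 h replicate 2 or 6 h replicate 2 (adjusted p up to 0.0677). Of 8 genes of PI3 kinase and AKT, 1 was higher and 2 were lower. Pik3r1, the regulatory subunit p85, had 238, 309 and 209 CPM at 0 h and 341, 440 and 315 CPM at 6 h, higher by 0.54 ± 0.06 (adjusted p = 1.33e-05 with the block). Pdpk1 was lower by -0.26 ± 0.06 (adjusted p = 0.00503), except without 0 h replicate 3 (adjusted p = 0.0507). For Pik3cb the value was -0.16 ± 0.06 (adjusted p = 0.0482), a call that held only without 1 h replicate 3 among the 9 fits on 8 libraries (adjusted p up to 0.175).

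The feedback antagonists and ETS targets of FGF signalling held both higher and lower genes. With the block 3 of 12 genes were higher and 2 lower at 6 h against 0 h, and the median log2 fold change was -0.07. Spred1, an inhibitor of RAS activation, had 339, 354 and 379 CPM at 0 h and 262, 255 and 282 CPM at 6 h. Its groups did not overlap, and it was lower by -0.42 ± 0.07 without the block (adjusted p = 0.0282) and with it (adjusted p = 6.1e-05). The call without the block held only without 1 h replicate 3 among those fits (adjusted p up to 0.123). Dusp6, the phosphatase that switches off ERK, had 510, 364 and 387 CPM at 0 h, 393, 265 and 230 CPM at 1 h and 323, 306 and 225 CPM at 6 h. It was lower at 1 h by -0.53 ± 0.09 (adjusted p = 0.00584 with the block), except without 0 h replicate 3 (adjusted p = 0.0614), and at 6 h by -0.56 ± 0.09 (adjusted p = 0.000389). By contrast, Spry1, a Sprouty inhibitor of the receptor signal, was higher at 1 h by 0.46 ± 0.09 (adjusted p = 0.0146), a call lost without 0 h replicate 1 or 0 h replicate 2 (adjusted p up to 0.117). Etv4 was higher at 6 h by 0.34 ± 0.06 (adjusted p = 0.000687), with 144, 154 and 169 CPM at 0 h and 182, 212 and 194 CPM at 6 h. Il17rd, an antagonist at the membrane, was higher by 0.74 ± 0.16 (adjusted p = 0.00279), although replicate 3 held 157 CPM at 0 h beside 10.5 and 24.9 CPM in replicates 1 and 2.

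**Figure D4:**
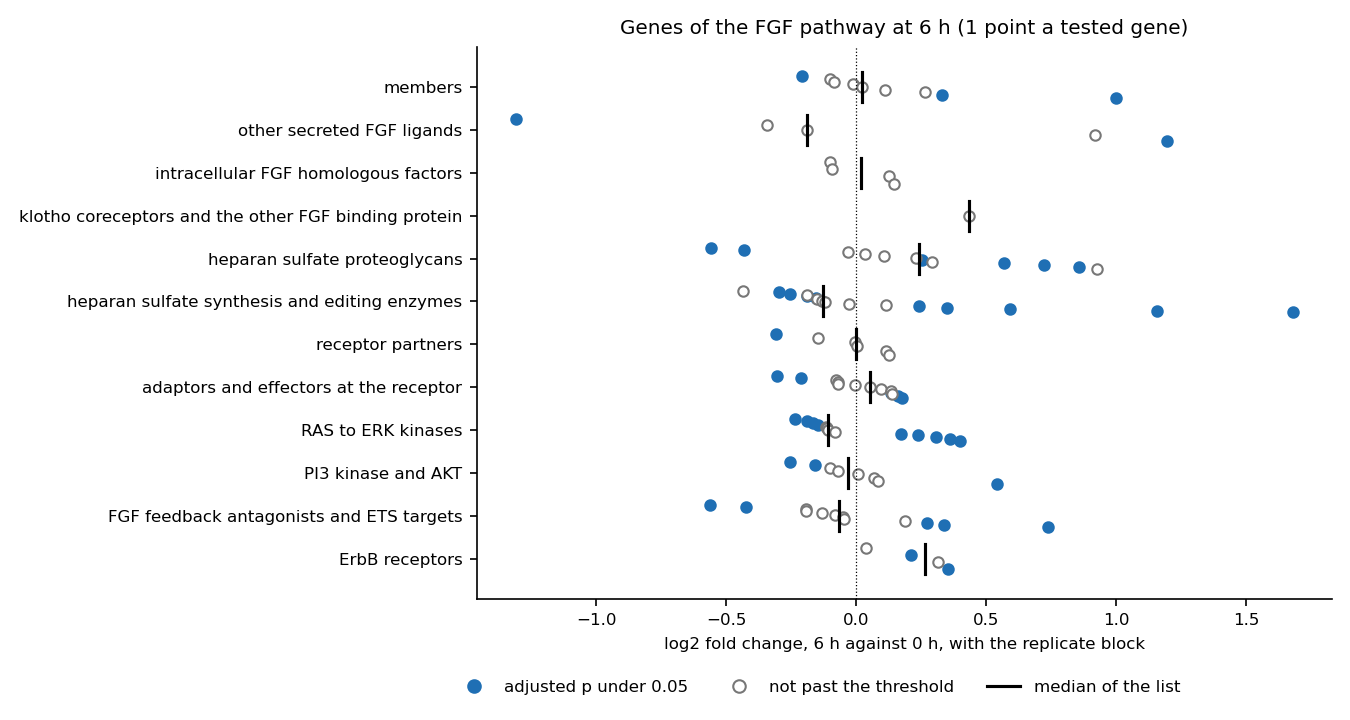
Log2 fold change at 6 h against 0 h with the replicate block (x axis) of each tested gene, 1 point a gene. The y axis gives the 9 tested members, each list of the pathway and, as a comparison, the ErbB receptors. Filled points had an adjusted p under 0.05 and black lines are medians. Positive and negative values are mixed within most lists, and the medians lie between -0.19 and 0.43. The lowest is that of the 5 tested other secreted ligands. The highest is the value of the 1 tested gene of the klotho list, which was not called.

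The ErbB receptors, the family that holds the receptor of the withdrawn EGF, served as a comparison. Of their 4 genes 2 were higher and 0 lower at 6 h against 0 h with the block. The shares of all tested genes in that fit were 17.4% higher and 17.5% lower. Egfr had 608, 739 and 629 CPM at 0 h, 613, 754 and 513 CPM at 1 h and 699, 820 and 762 CPM at 6 h. Its log2 fold change at 6 h was 0.21 ± 0.07 (adjusted p = 0.0392), a call lost without any of the 3 libraries at 0 h, without 6 h replicate 1 and without 6 h replicate 3 (adjusted p up to 0.242). Erbb2 was higher by 0.35 ± 0.05 (adjusted p = 0.000219), a size like that of Fgfrl1.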

How the data were processed

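RNA-seq counts per gene of 9 libraries (3 at each of 0 h, 1 h and 6 h; labelled as stranded mRNA) were used. The authors made the deposited counts by aligning reads with STAR, and the values are whole, unnormalised counts. The submitters' processing notes name STAR 2.5.3a, FastQC and DESeq2 1.22.1 and mm10 (GRCm38); the strand setting of the counting is not given in the sources used here, so that antisense overlaps remain uncertain. Symbols and lengths came from GENCODE M21.

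Groups followed the labels. Genes were kept with filterByExpr of edgeR 4.0.16, scaled by TMM and tested with quasi-likelihood F-tests on all libraries, with Benjamini-Hochberg adjustment over all tested genes and a threshold of 0.05. The fit used the time point alone. Letters in the titles (B, C and D), given here as replicate numbers in that order, paired the libraries in the data. Deviations from the time point means correlated at 0.733 to 0.800 in 9 pairs of the same number. In 18 other pairs they correlated at -0.462 to -0.314. The fit with the number as a block is therefore printed beside it. The steps were tested on simulated data.

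The members and lists were chosen with earlier results of these data known. All members were named, and from each list up to 2 called genes per direction and comparison; at 6 h against 1 h only those called without the block are named, the rest being given as counts, and 1 gene that the rule names is not reported here. The alternatives were DESeq2 1.42.0, library totals, other filters, an adjusted p of 0.01, removal of GC and length trends, and leaving out each library; 4 with the block and the paired test of shares were added once the data had been examined.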

Additional observations from a re-analysis of the deposited data

How the results depend on the processing

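The replicate block decided every call of a member. The counts of members called higher and lower without the block were 0 in every comparison, and with the replicate block they were 0 and 1 at 1 h against 0 h, 2 and 1 at 6 h against 0 h and 2 and 1 at 6 h against 1 h. DESeq2 with the block gave 2 and 1, 2 and 1, and 2 and 1, and the block with GC and length trends removed gave 1 and 1, 2 and 1, and 1 and 3. With the block, an adjusted p of 0.01 left 0 lower at 6 h against 0 h, and 1 higher and 0 lower at 6 h against 1 h. The blocked fit of only the 6 libraries compared left 1 and 0 at 6 h against 1 h, and library totals left 0 lower there. At 6 h against 0 h the 6 libraries compared and library totals each gave 3 higher with the block. Leaving out a library gave 0 to 1 higher and 0 to 1 lower at 1 h against 0 h, 2 to 3 higher and 0 to 1 lower at 6 h against 0 h, and 1 to 3 higher and 0 to 2 lower at 6 h against 1 h. The causes were not tested. Permuted within replicate numbers, the differences of the receptor shares stayed short of the threshold, as the exact test within 3 pairs must. That test uses the same differences of means as the test between libraries, and was added once the data had been examined.

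Of 27 log2 fold changes, 9 members in 3 comparisons, 19 without the block and 9 with it took both signs when a library was left out. In the blocked fit none of these was a call. Without the block, leaving out a library moved 1 h against 0 h from -1.56 to 0.77 for Fgf1, -0.0230 to 0.45 for Fgfr2 and -0.42 to 0.10 for Fgfr3. At 6 h against 0 h it moved Fgf1 from -0.10 to 2.10, Fgfr1 from -0.16 to 0.14, Fgfr2 from -0.17 to 0.35, Fgfr3 from -0.39 to 0.0137, Fgf2 from -0.16 to 0.0234 and Fgfbp3 from -0.16 to 0.24, and at 6 h against 1 h Fgfr1 from -0.29 to 0.0110, Fgfr2 from -0.39 to 0.14 and Fgfr3 from -0.25 to 0.20. With the block the ranges at 6 h against 0 h were -0.0423 to 0.0403 for Fgfr1, -0.19 to 0.0546 for Fgf2 and -0.0108 to 0.0713 for Fgfbp3. At 6 h against 0 h Fgfr1 was 0.0145 with library totals, 0.0077 with library totals and the block, 0.0070 with no filter and 0.0051 among genes averaging 1 CPM or more, and Fgfbp3 was -0.0414 with GC and length trends removed and -0.0451 with the block as well. Changes of Fgfr4, with 2 to 9 counts a library, were not detectable at this depth.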
